A study of Homo sapiens with 24 samples.

Results

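The 9 genes PARP1, PARP2, PARP3, PARG, ADPRHL2, XRCC1, LIG3, POLB and APEX1 encode the enzymes that olaparib inhibits and the proteins that work with them on broken DNA single strands. They were chosen by gene symbol among the 58735 genes of the deposited count table, each symbol matched 1 gene, and all 9 passed the filter on low counts in both lines. Messenger RNA was sequenced from 2 established human acute myeloid leukemia lines, THP-1 and MOLM-13, both of which carry the MLL-AF9 (KMT2A-MLLT3) fusion. Cells of each line were kept for 72 h with 250 µM LAA (L-ascorbic acid or vitamin C, which TET dioxygenases use as a cofactor), with 1 µM olaparib, with both compounds at those doses, or with the vehicle of both, PBS with DMSO. That gave 8 groups of 3 libraries, 24 in all. Whether the 3 replicates came from separate cultures is not stated, and the spread behind each p-value, that between these libraries, may be technical. As bulk RNA of 1 line each, the libraries cannot tell a change in every cell from a change in a share of the cells.

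Poly-ADP-ribose polymerases bind a break in DNA and use NAD+ to attach chains of ADP-ribose to themselves and to nearby proteins. The chains recruit repair factors, and hydrolases then remove them. Olaparib competes with NAD+ and holds PARP1 and PARP2 on DNA, and cells that cannot repair the resulting damage by homologous recombination are killed.

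ADPRHL2 and XRCC1 were the members whose messenger RNA was called changed, and PARP1 is the main target of the drug. Their promoters are therefore printed, from 250 bases before to 50 bases after the start given by RefSeq (GRCh38.p14), 5′ to 3′ on the gene's own strand. Capitals mark the ETS motif CCGGAAG and the CCAAT box (CCAAT, or ATTGG on the other strand). ADPRHL2, listed by RefSeq as ADPRS, lies at chr1:36088642-36088941 on the plus strand. XRCC1 lies at chr19:43575478-43575777 on the minus strand, inside the gene as the deposited table bounds it, and PARP1 at chr1:226408044-226408343 on the minus strand.
ADPRHL2: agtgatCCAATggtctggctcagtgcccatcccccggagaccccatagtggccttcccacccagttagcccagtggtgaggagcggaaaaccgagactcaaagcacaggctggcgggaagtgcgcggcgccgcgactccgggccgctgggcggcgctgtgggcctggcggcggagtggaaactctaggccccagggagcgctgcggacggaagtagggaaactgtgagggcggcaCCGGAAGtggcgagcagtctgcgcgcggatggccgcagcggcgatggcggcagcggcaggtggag
XRCC1: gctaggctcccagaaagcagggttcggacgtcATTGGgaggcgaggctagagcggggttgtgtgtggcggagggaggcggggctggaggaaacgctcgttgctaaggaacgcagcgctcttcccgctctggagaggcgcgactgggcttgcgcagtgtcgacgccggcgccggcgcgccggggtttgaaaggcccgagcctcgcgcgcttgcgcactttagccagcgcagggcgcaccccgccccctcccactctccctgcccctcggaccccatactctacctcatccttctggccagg
PARP1: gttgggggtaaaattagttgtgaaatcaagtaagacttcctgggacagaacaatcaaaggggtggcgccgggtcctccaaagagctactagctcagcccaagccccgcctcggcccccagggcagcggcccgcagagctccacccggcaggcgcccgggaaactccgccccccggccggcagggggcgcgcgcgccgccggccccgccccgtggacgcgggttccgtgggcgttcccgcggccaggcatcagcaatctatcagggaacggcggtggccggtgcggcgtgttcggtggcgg
Motifs were searched on both strands, and positions are those of a match's first printed base counted from the start site as 0. In ADPRHL2 a CCAAT box stands at position -244 and an ETS motif at -15. XRCC1 has a CCAAT box at -218 and PARP1 has neither motif. Of 35116 RefSeq promoters of the same length, 34.61% hold a CCAAT box and 10.26% hold the ETS motif. SP1's motif GGGCGG, present in 44.95% of all promoters, was found 2 times each in ADPRHL2 and PARP1 and 1 time in XRCC1. None of the 8 members with a listed promoter holds the E2F motif (TTTCGCGC or TTTGGCGC, in 1.15% of promoters), the interferon response element (GAAA, any 2 bases, GAAA; 3.57%) or the C/EBP-ATF response element TTGCATCA (0.87%). The 3 printed promoters hold 29, 31 and 33 CpG dinucleotides in the order shown, against a median of 14 and an upper quartile of 28 over all promoters.

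Total counts per library ran from 18666259 to 25265870, and TMM scaling factors from 0.943 to 1.04. Mitochondrially encoded protein genes took 5.36 to 9.30% of counts, the highest share in MOLM-13 olaparib replicate 3. That share was 6.40 to 7.85% in THP-1 with both compounds and at most 6.26% in the other THP-1 libraries, and it was 5.63 to 9.30% in treated MOLM-13 libraries and 5.37 to 5.44% with vehicle. All 12 myeloid markers were over 1 CPM (counts scaled to library size, with TMM scaling) in every group, with summed levels of 1675 to 1752 CPM in THP-1 with both compounds, at most 1631 CPM in the other THP-1 libraries and 1411 to 1648 CPM in MOLM-13. Summed markers stayed at or below 24.4 CPM for T and NK cells, 21.9 CPM for B cells, 2.10 CPM for erythroid cells and megakaryocytes and 11.5 CPM for epithelial cells and fibroblasts, and CD3E, MS4A1, HBB, PF4 and EPCAM were at or near 0. Among the libraries labelled MOLM-13, 1 set of genes differed between the treatment groups. For 15 genes almost silent in THP-1, a set chosen in an earlier analysis of these data after their values were seen, summed levels were 5.34 ± 0.50 CPM with LAA, 19.2 ± 1.37 CPM with olaparib, 4.08 ± 1.04 CPM with both and 31.6 ± 0.89 CPM with vehicle (SD, n = 3 each). The 4 THP-1 groups averaged at most 0.361 CPM. Correlations of log2 CPM between THP-1 vehicle and MOLM-13 vehicle libraries were 0.978 to 0.983, inside the range of 0.973 to 0.988 within groups. Between these vehicle groups edgeR called 765 of 17089 genes tested, 202 of them at least 2-fold apart. Results for MOLM-13 below are differences between libraries labelled MOLM-13, and the part of this set in them was not tested. Whether each of these libraries is of the line on its label was not tested either.

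Per length of gene, as deposited FPKM over the 24 libraries, APEX1 stood highest with a median of 167 (146 to 203) and PARP1 second with 87.0 (82.3 to 104). ADPRHL2 followed with 21.5 FPKM (16.7 to 35.2), XRCC1 with 14.5 (11.8 to 18.4) and PARP2 with 7.70 (6.54 to 8.62). Lowest were POLB with 4.60 FPKM (3.66 to 5.51), PARG with 4.02 (2.98 to 4.73), PARP3 with 1.76 (1.15 to 2.61) and LIG3 with 1.74 (1.51 to 2.01). The ranges of ADPRHL2 and XRCC1, of POLB and PARG, and of PARP3 and LIG3 overlapped, and those of the other neighbours in this order did not. The order and its gaps depend on the length used, which here is that of the whole gene model. That is 4106 bases for POLB, 7169 for PARP1, 12919 for LIG3 and 1886 for APEX1, against longest transcripts of 1341, 3958, 8400 and 1803 bases. Without division by length, median levels were 22.7 CPM for LIG3 and 5.19 CPM for PARP3. In THP-1 vehicle against MOLM-13 vehicle edgeR called 0 of 9 members where it called 4.48% of genes tested (2.49% higher, 1.99% lower). APEX1 alone had an unadjusted p under 0.05 (log2 difference -0.14 ± 0.06, edgeR adjusted p = 0.236), and DESeq2 and limma also called 0.

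**Figure D1:**
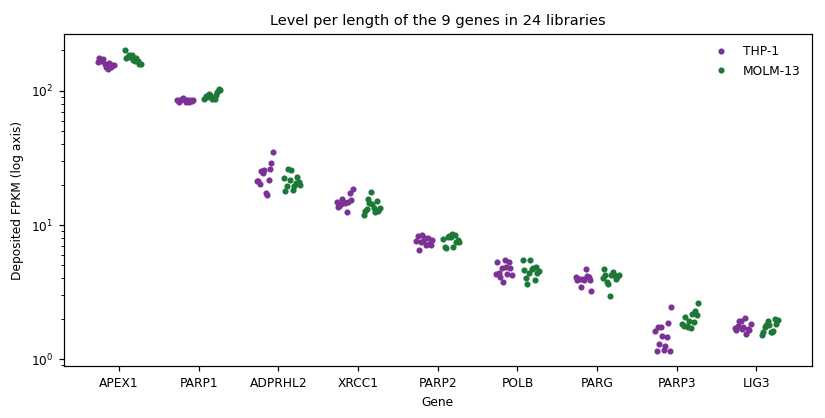
Deposited FPKM of each of the 9 genes (log axis) in the 12 THP-1 libraries (purple, left) and the 12 MOLM-13 libraries (green, right), 1 point per library. APEX1 and PARP1 stand above the other 7 genes in every library, and PARP3 and LIG3 share the lowest place.

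With both compounds in THP-1, the messenger RNA of ADPRHL2, a hydrolase that removes ADP-ribose from serine, rose 1.43-fold against vehicle. That of XRCC1, the scaffold of single-strand break repair, rose 1.19-fold. The polymerase genes PARP1, PARP2 and PARP3 were not called in any of the 16 comparisons. In MOLM-13 no member was called in any comparison, and neither compound alone moved a member past the threshold in either line. Over all genes tested, the share called ran from 0.00585% to 27.1% in the 16 comparisons. It was 0.00619% to 14.9% within MOLM-13, and 1.49% with LAA and 0.269% with olaparib in THP-1. At such shares 0 calls among 9 genes are common and are no result about the members. Calls rest on edgeR's quasi-likelihood test with Benjamini-Hochberg adjustment over all genes tested and a threshold of 0.05, and log2 fold changes are given ± SE. Groups of 3 libraries that do not overlap with vehicle are common among all genes tested. In THP-1 the share was 19.8% with LAA, 16.5% with olaparib and 40.1% with both compounds, and 1, 1 and 3 of the 9 members did not overlap. In MOLM-13 it was 18.9%, 14.3% and 35.1% in the same order, and 4, 1 and 4 members did not overlap. Groups described below as wholly above or below vehicle are to be read against these shares.

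**Figure D2:**
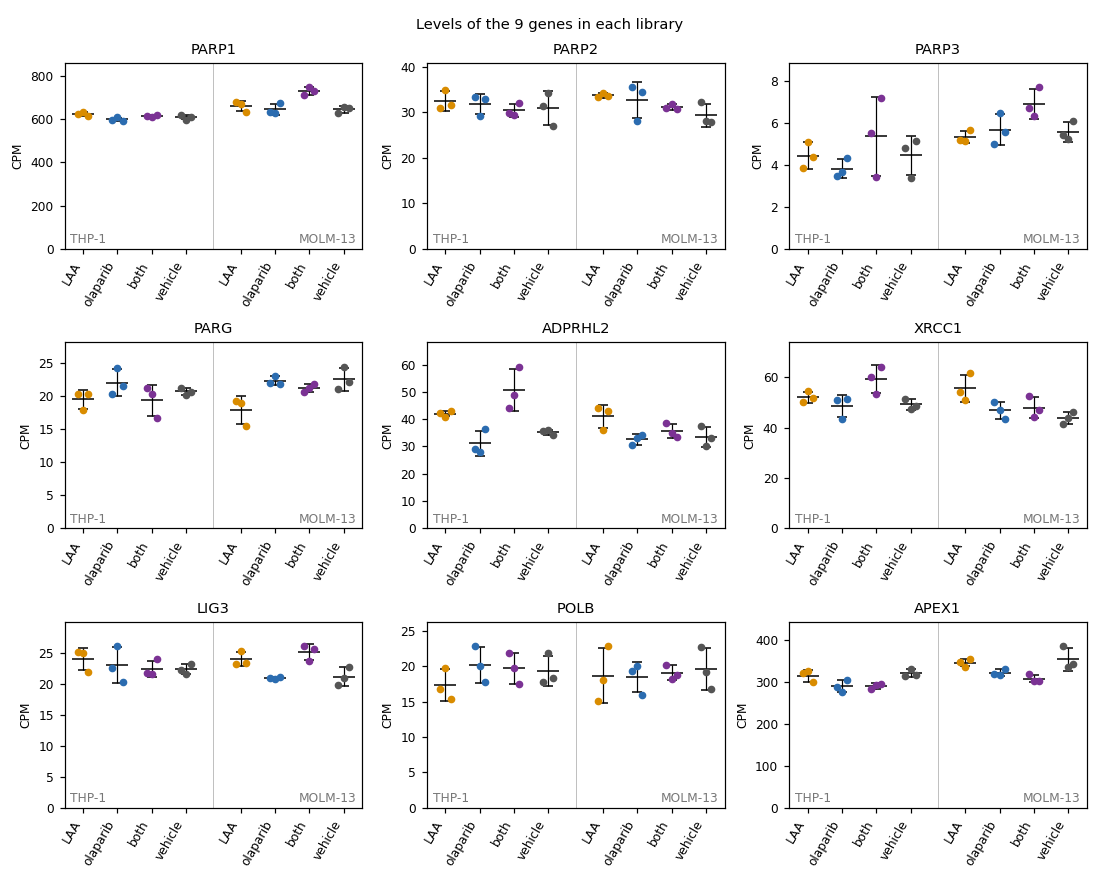
CPM (linear axes from 0) of each gene in every library, with THP-1 left and MOLM-13 right of the grey line and, within a line, LAA, olaparib, both compounds and vehicle. Bars are the mean and SD of 3 libraries. ADPRHL2 in the THP-1 libraries with both compounds, 44.1 to 59.3 CPM, stands above all other THP-1 libraries.

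PARP1 (ENSG00000143799, hg38 chr1:226360691-226408079, minus strand) detects breaks and makes most poly-ADP-ribose in the cell. In THP-1 it had 624, 635 and 616 CPM with LAA, 597, 609 and 594 CPM with olaparib, 613, 611 and 620 CPM with both and 620, 599 and 613 CPM with vehicle. These 12 values lay within a narrow band, and the libraries with both compounds overlapped with those of LAA and of vehicle and stood above those of olaparib. The log2 fold change with both compounds was 0.00 ± 0.05, with a 95% interval of -0.10 to 0.10 (edgeR adjusted p = 0.992). In libraries labelled MOLM-13 it had 679, 672 and 634 CPM with LAA, 635, 630 and 675 CPM with olaparib, 714, 748 and 729 CPM with both and 630, 657 and 651 CPM with vehicle. There the 3 libraries with both compounds were above the other 9. That difference from vehicle, a log2 fold change of 0.18 ± 0.07 (1.13-fold, 95% interval 0.04 to 0.32), missed the threshold in edgeR's fit of the line (adjusted p = 0.0886). It passed in DESeq2 (adjusted p = 0.0227), with total counts as the only scaling (edgeR adjusted p = 0.0311) and in a fit of all 24 libraries (edgeR adjusted p = 0.018). THP-1 minus MOLM-13, the effect of both compounds on PARP1 differed by -0.17 ± 0.07 on the log2 scale (edgeR adjusted p = 0.245).

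PARP2 (ENSG00000129484, hg38 chr14:20343582-20357905, plus strand), the second target of olaparib, binds the same kinds of break. In THP-1 its levels were 30.9, 34.9 and 31.6 CPM with LAA, 33.3, 29.2 and 33.0 CPM with olaparib, 29.9, 29.3 and 32.0 CPM with both and 31.5, 34.3 and 27.0 CPM with vehicle. MOLM-13 libraries gave 33.3, 34.3 and 33.7 CPM with LAA, 35.5, 28.2 and 34.6 CPM with olaparib, 30.9, 31.9 and 30.7 CPM with both and 32.3, 28.1 and 27.8 CPM with vehicle. All groups overlapped with vehicle except MOLM-13 LAA, whose 3 libraries were higher by 0.20 ± 0.10 on the log2 scale (edgeR adjusted p = 0.375). Between the highest and lowest of the 8 group means PARP2 varied 1.15-fold, the least of the 9 genes. PARP3 (ENSG00000041880, hg38 chr3:51942345-51948867, plus strand) attaches single ADP-ribose units and is known for its part in joining double-strand breaks. It was the least counted member, with 67 to 156 counts per library, and its interval against vehicle reached past 1.5-fold in 3 of the 6 comparisons. With both compounds it averaged 5.38 ± 1.88 CPM against 4.46 ± 0.93 CPM with vehicle in THP-1, groups that overlapped. In MOLM-13 it averaged 6.92 ± 0.72 CPM with both and 5.58 ± 0.47 CPM with vehicle (SD, n = 3), groups that did not overlap but whose log2 difference of 0.31 ± 0.16 was not called (edgeR adjusted p = 0.243).

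ADPRHL2 and PARG undo the modification. ADPRHL2 (ENSG00000116863, hg38 chr1:36088875-36093932, plus strand) had 42.1, 41.0 and 42.9 CPM with LAA in THP-1, 29.1, 27.9 and 36.4 CPM with olaparib, 44.1, 49.0 and 59.3 CPM with both and 35.7, 35.9 and 34.2 CPM with vehicle. All 3 libraries with both compounds were above every other THP-1 library, and all 3 with LAA were above the vehicle libraries. With both compounds the log2 fold change against vehicle was 0.52 ± 0.10, with a 95% interval of 0.31 to 0.72 (edgeR adjusted p = 0.000352). Against olaparib alone it was 0.69 ± 0.10, or 1.61-fold (edgeR adjusted p = 1.24e-05), and against LAA alone 0.27 ± 0.10, which was not called (edgeR adjusted p = 0.0624). LAA alone gave 0.25 ± 0.10 (edgeR adjusted p = 0.294) and olaparib alone -0.18 ± 0.10 (edgeR adjusted p = 0.65). The interaction, the change with both compounds beyond the sum of the changes with each, was 0.44 ± 0.14 on the log2 scale (95% interval 0.15 to 0.74) and missed the threshold (edgeR adjusted p = 0.061). It passed in DESeq2 (adjusted p = 0.0445) and without replicate 3 of olaparib or replicate 1 of both compounds (edgeR adjusted p = 0.0112 and 0.0234), and over 21 alternatives its adjusted p ran from 0.0112 to 0.202, with 5 calls. The difference from LAA alone likewise passed without replicate 1 of both compounds (edgeR adjusted p = 0.0184), 1 of 3 calls over 15 alternatives. The call against vehicle held without any single THP-1 library of those groups, with log2 fold changes of 0.39 to 0.61. The lowest of these was without replicate 3 of both compounds (edgeR adjusted p = 0.0054), the library with 59.3 CPM.

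In MOLM-13 libraries ADPRHL2 had 44.0, 36.1 and 43.1 CPM with LAA, 30.4, 33.1 and 34.4 CPM with olaparib, 38.6, 35.1 and 33.6 CPM with both and 37.5, 30.1 and 33.1 CPM with vehicle. Every treatment overlapped with vehicle. The log2 fold change with both compounds was 0.09 ± 0.11 there (95% interval -0.13 to 0.31, edgeR adjusted p = 0.643). THP-1 minus MOLM-13, the effect differed by 0.43 ± 0.15 on the log2 scale, with a 95% interval of 0.12 to 0.75 and an edgeR adjusted p of 0.139, so a difference between the lines was not called. With the trend on GC content and length removed, the effect in MOLM-13 was 0.23 (edgeR adjusted p = 0.0867) and the difference between the lines 0.28 (edgeR adjusted p = 0.259). PARG (ENSG00000227345, hg38 chr10:49818279-49970203, minus strand), the glycohydrolase that cuts the chains, had 20.3, 17.8 and 20.3 CPM with LAA in THP-1, 20.3, 24.2 and 21.5 CPM with olaparib, 21.1, 20.2 and 16.6 CPM with both and 21.2, 20.1 and 20.6 CPM with vehicle. In MOLM-13 it had 19.3, 18.9 and 15.4 CPM with LAA, 22.0, 23.0 and 21.8 CPM with olaparib, 20.6, 21.3 and 21.8 CPM with both and 21.0, 24.4 and 22.1 CPM with vehicle. PARG was lowest in the MOLM-13 LAA libraries, all 3 of them below vehicle, with a log2 fold change of -0.33 ± 0.11 that was not called (edgeR adjusted p = 0.133). Its copy PARGP1 averaged 19.1 counts per library against 434 for PARG, and how the counting split reads between the copies is not given in the sources used here.

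XRCC1 (ENSG00000073050, hg38 chr19:43543040-43580473, minus strand) has no enzyme activity of its own and holds the ligase, the polymerase and the end-processing enzymes at the break. In THP-1 it had 50.1, 54.5 and 51.8 CPM with LAA, 50.9, 43.6 and 51.3 CPM with olaparib, 60.2, 53.3 and 64.3 CPM with both and 51.5, 47.6 and 48.6 CPM with vehicle. The 3 libraries with both compounds were above all vehicle and olaparib libraries and overlapped with those of LAA. The log2 fold change with both compounds was 0.26 ± 0.08 against vehicle (95% interval 0.09 to 0.43, edgeR adjusted p = 0.0222) and 0.27 ± 0.08 against olaparib (edgeR adjusted p = 0.0163). Against vehicle the call was lost without vehicle replicate 2 or 3 (edgeR adjusted p = 0.0902 and 0.0656) and without replicate 1 or 3 of both compounds (edgeR adjusted p = 0.0591 and 0.123). Against olaparib it was lost without olaparib replicate 2 or replicate 3 of both compounds (edgeR adjusted p = 0.105 and 0.098). In MOLM-13 XRCC1 had 54.3, 50.9 and 61.6 CPM with LAA, 50.2, 47.0 and 43.6 CPM with olaparib, 52.7, 44.3 and 46.9 CPM with both and 41.3, 44.0 and 46.0 CPM with vehicle. Here it was LAA alone whose 3 libraries were above vehicle, by 0.35 ± 0.10 on the log2 scale (1.27-fold). This missed the threshold in edgeR's fit of the line (adjusted p = 0.0705), and passed in DESeq2 (adjusted p = 0.0234), in the fit of all 24 libraries (edgeR adjusted p = 0.0264) and without LAA replicate 2 (edgeR adjusted p = 0.0385).

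LIG3 (ENSG00000005156, hg38 chr17:34980494-35009743, plus strand), the ligase that seals the nick with XRCC1, had 25.0, 25.0 and 21.9 CPM with LAA in THP-1, 22.6, 26.1 and 20.2 CPM with olaparib, 21.7, 21.5 and 23.9 CPM with both and 22.2, 21.6 and 23.2 CPM with vehicle, groups that overlapped. In MOLM-13 it had 23.2, 25.2 and 23.3 CPM with LAA, 20.9, 20.8 and 21.0 CPM with olaparib, 26.0, 23.6 and 25.6 CPM with both and 19.7, 20.9 and 22.7 CPM with vehicle. The MOLM-13 libraries with both compounds were all above vehicle, by 0.25 ± 0.10 on the log2 scale (edgeR adjusted p = 0.103). Of the exonic bases of LIG3 29.1% overlap RFFL on the other strand, the library kit does not mark the strand, and the counts of LIG3 and RFFL (means of 478 and 289) therefore cannot be fully told apart.

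APEX1 (ENSG00000100823, hg38 chr14:20455191-20457772, plus strand), the endonuclease that cuts DNA at sites that have lost a base, was among the most abundant members. In THP-1 it had 322, 326 and 299 CPM with LAA, 288, 276 and 306 CPM with olaparib, 283, 294 and 297 CPM with both and 314, 332 and 318 CPM with vehicle. In MOLM-13 it had 348, 337 and 354 CPM with LAA, 320, 317 and 333 CPM with olaparib, 318, 303 and 303 CPM with both and 386, 336 and 343 CPM with vehicle. In both lines every library with olaparib, alone or with LAA, was below every vehicle library, and those with LAA alone overlapped with vehicle. Of 15793 genes tested in both lines 0.735% had both groups with olaparib wholly below vehicle in both lines, whatever LAA alone did. The comparisons share the vehicle libraries of a line. Because the pattern and its direction were taken from APEX1 itself, this share does not measure how unusual APEX1 is. None of the APEX1 differences from vehicle was called by edgeR. With both compounds the log2 fold change was -0.15 ± 0.06 in THP-1 (edgeR adjusted p = 0.0535) and -0.20 ± 0.07 in MOLM-13 (edgeR adjusted p = 0.0662), and with olaparib alone -0.15 ± 0.06 (edgeR adjusted p = 0.415) and -0.13 ± 0.07 (edgeR adjusted p = 0.62). DESeq2 called the values with both compounds in THP-1 and in MOLM-13 (adjusted p = 0.039 and 0.0264), and so did edgeR with the trend on GC content and length removed in THP-1 (adjusted p = 0.00401) and in the fit of all 24 libraries in MOLM-13 (adjusted p = 0.0205). With that trend removed the MOLM-13 value was -0.12 and was not called (edgeR adjusted p = 0.182). POLB (ENSG00000070501, hg38 chr8:42338454-42371808, plus strand), the polymerase that fills the gap, averaged 17.4 ± 2.24 CPM with LAA in THP-1, 20.2 ± 2.56 CPM with olaparib, 19.7 ± 2.21 CPM with both and 19.3 ± 2.18 CPM with vehicle (SD, n = 3 each). In MOLM-13 the means were 18.7 ± 3.87, 18.4 ± 2.16, 19.1 ± 1.05 and 19.6 ± 3.00 CPM in the same order. All POLB groups overlapped with vehicle, and its spread within groups, 0.19 on the log2 scale, was larger than that between group means, 0.07.

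**Figure D3:**
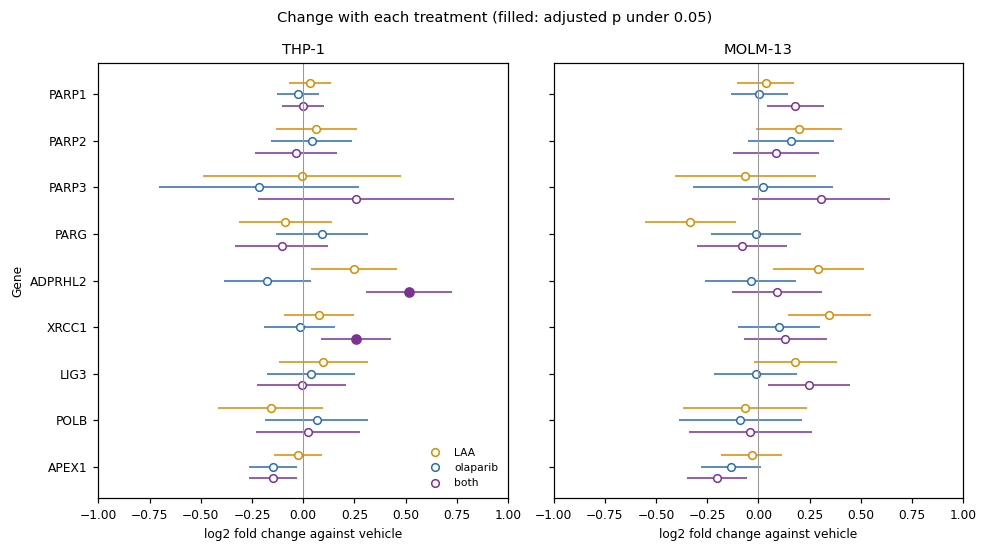
Log2 fold change against vehicle (points) with its 95% interval (lines) for each gene in THP-1 (left) and MOLM-13 (right), with LAA, olaparib or both compounds. Filled points passed an adjusted p of 0.05, which only ADPRHL2 (0.52) and XRCC1 (0.26) with both compounds in THP-1 did.

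Counted over the 9 genes, both compounds in THP-1 gave 2 higher, 0 lower and 7 not called, where 27.1% of all genes tested were called, 13.5% higher and 13.5% lower. Against olaparib alone the count was again 2 higher, where 24.2% of genes were called, 12.3% higher and 11.9% lower. Both counts are near the background and are no result about the 9 genes as a set. Against LAA alone 0 of 9 were called, where 20.3% of genes were, and the interaction gave 0 where 7.57% of genes were called. At an unadjusted p under 0.05 these numbered 3 and 1, and DESeq2 called 0 and 1. The median log2 fold change of the 9 genes with both compounds was 0.00 against -0.01 over all genes, and the median size of the change was 0.10 against 0.25.

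The single compounds gave 0 of 9 in THP-1, where LAA called 1.49% of genes (0.937% higher, 0.551% lower) and olaparib 0.269% (0.184% higher, 0.0857% lower), with 1 member each at an unadjusted p under 0.05 (ADPRHL2 for LAA, APEX1 for olaparib) and 0 by DESeq2. MOLM-13 with LAA gave 0 of 9 where 1.88% of genes were called (0.792% higher, 1.08% lower), 3 at an unadjusted p under 0.05 (PARG, ADPRHL2 and XRCC1) and 1 by DESeq2. With olaparib it gave 0 where 0.00619% of genes were called, 0 at an unadjusted p under 0.05 and 0 by DESeq2. With both compounds it gave 0 where 12.2% were called (4.85% higher, 7.35% lower), 3 at an unadjusted p under 0.05 (PARP1, LIG3 and APEX1) and 2 by DESeq2. Both compounds against LAA gave 0 where 14.9% were called, 5 at an unadjusted p under 0.05 (PARP1, PARP3, PARG, XRCC1 and APEX1) and 0 by DESeq2. Set against olaparib they gave 0 where 7.48% were called, 2 at an unadjusted p under 0.05 and 1 by DESeq2, and the interaction gave 0 where 2.04% were called, 1 at an unadjusted p under 0.05 and 0 by DESeq2. Differences between the lines gave 0 of 9 for LAA, olaparib and both compounds, where 0.14%, 0.00585% and 2.13% of genes were called. At an unadjusted p under 0.05 these numbered 1, 0 and 2, and DESeq2 called 0 in each. Limma on log2 FPKM called no member in any of the comparisons in which edgeR called none. The 95% intervals against vehicle lay within 1.5-fold for 9 members with LAA, 8 with olaparib and 7 with both compounds in THP-1, and for 9, 9 and 8 in MOLM-13. All 54 intervals lay within 2-fold.

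GC content differs among the 9 genes. Longest transcripts of ADPRHL2, XRCC1 and PARP3 have 58.9, 58.3 and 57.1% GC, and those of POLB and PARG the lowest, 42.5 and 43.0%. For each library, the median log2 deviation of the 10% of genes highest in GC minus that of the 10% lowest was taken. It ran from -0.23 to 0.45, with the maximum in MOLM-13 LAA replicate 3, the library with 15.4 CPM of PARG and 61.6 CPM of XRCC1. In THP-1 with both compounds it was highest, 0.21, in replicate 3, where ADPRHL2 and XRCC1 were highest and PARG lowest. With the trend on GC content and length removed, an alternative chosen after seeing the data, the changes with both compounds in THP-1 were 0.50 for ADPRHL2 and 0.24 for XRCC1 on the log2 scale (edgeR adjusted p = 3.18e-05 and 0.0094), against 0.52 and 0.26 before. In MOLM-13 with LAA those of XRCC1 and PARG were then 0.27 and -0.26 (edgeR adjusted p = 0.0758 and 0.139).

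Genes whose pattern was most like that of each member were sought among 11338 protein-coding genes by Pearson correlation of log2 CPM over the 24 libraries, after the mean of each line was taken off. The points share depth and GC trends of the same libraries. For ADPRHL2 these were NUDC, DRAP1 and RNH1 (r = 0.89 each), for XRCC1 IP6K1, SEC13 and ZNF629 (r = 0.87, 0.86 and 0.86), and for PARG OSBPL8, ATP2B1 and KDM1B (r = 0.91 each). PARP1 was most like INTS7 (r = 0.86), APEX1 like MRPL57 (r = 0.87) and LIG3 like CCDC85C (r = 0.79). Lower likeness was found for PARP3 with VAT1 (r = 0.71), PARP2 with NPRL3 (r = 0.68) and POLB with TSPAN32 (r = 0.65). Of the pairs named here, PARP1 with INTS7 and POLB with TSPAN32 differed most between the lines. Within THP-1 r was 0.53 for PARP1 with INTS7 and 0.83 for POLB with TSPAN32, and within MOLM-13 0.98 and 0.45. Among the 9 genes, ADPRHL2 and XRCC1 moved together (r = 0.70), and each moved against PARG (r = -0.70 and -0.76). PARP1 and LIG3 had r = 0.63.

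The remaining genes of the pathway were read from 6 lists, chosen with earlier results of these data known. With both compounds 13.5% of all genes tested were higher and 13.5% lower in THP-1, and 4.85% higher and 7.35% lower in MOLM-13, and the counts of each list stand beside these shares. In THP-1 with both compounds, 5 of 14 members of the PARP family outside the 9 genes rose, 1 fell and 8 were not called. PARP9, whose product acts with an E3 ligase in the interferon response, averaged 136 ± 4.86 CPM against 34.3 ± 5.76 CPM with vehicle (3.93-fold, edgeR adjusted p = 6.51e-15). PARP12, an antiviral mono-ADP-ribosyltransferase, averaged 52.0 ± 1.15 CPM against 15.1 ± 1.05 CPM (3.42-fold, edgeR adjusted p = 1.08e-13), and PARP14, a regulator of cytokine signalling, 258 ± 21.7 CPM against 93.7 ± 9.66 CPM (2.73-fold, edgeR adjusted p = 6.93e-14; SD, n = 3 each). In MOLM-13 with both compounds 4 of 14 rose and 0 fell. There PARP9 averaged 48.3 ± 8.31 CPM against 19.1 ± 0.93 CPM (2.53-fold, edgeR adjusted p = 2.48e-07), PARP14 rose 2.07-fold (edgeR adjusted p = 2.86e-05) and PARP12 1.94-fold (edgeR adjusted p = 0.000155). With LAA alone in THP-1 PARP9, PARP14 and PARP12 rose 1.76-fold, 1.46-fold and 1.40-fold (edgeR adjusted p = 4.60e-06, 0.000127 and 0.00863), 4 of 14 in all. LAA alone called 0.937% of all genes higher there and 0.551% lower. PARP9 also rose 1.39-fold with olaparib alone in THP-1 (edgeR adjusted p = 0.0267), 1 of 14, where 0.184% of all genes were called higher and 0.0857% lower. In MOLM-13 0 of 14 were called with LAA or with olaparib, where 1.88% and 0.00619% of all genes were. At an unadjusted p under 0.05 these numbered 2 and 2. These comparisons share their vehicle libraries within a line.

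**Figure D4:**
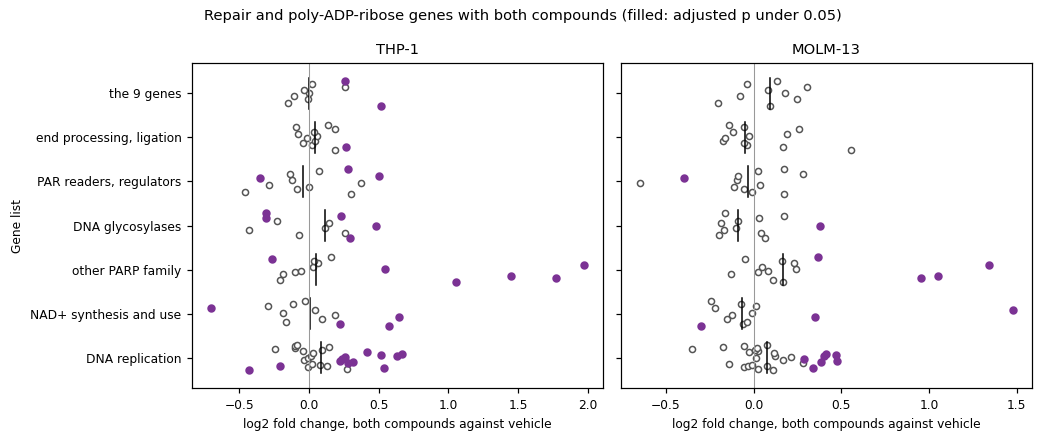
Log2 fold change with both compounds against vehicle for each tested gene of 7 lists in THP-1 (left) and MOLM-13 (right). Filled points passed an adjusted p of 0.05 and vertical bars are list medians. PARP9, PARP14 and PARP12 of the PARP family reach 1.97, 1.45 and 1.78 in THP-1, while the 9 genes stay between -0.15 and 0.52.

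The list of end-processing and ligation partners, which work beside XRCC1, holds 12 genes. With both compounds 1 of 12 rose in THP-1, APTX, which removes AMP from failed ligations (33.9 ± 2.79 CPM against 28.1 ± 0.46 CPM with vehicle, 1.20-fold, edgeR adjusted p = 0.0267), and 0 fell. In MOLM-13 0 of 12 were called, 3 at an unadjusted p under 0.05. Their median log2 fold changes were 0.04 in THP-1 and -0.05 in MOLM-13. Of all genes tested, 27.1% were called in THP-1 and 12.2% in MOLM-13. At such shares few or 0 calls among 12 genes are common and are no result about the list. Among 12 readers and regulators of poly-ADP-ribose 2 rose and 1 fell in THP-1, a number near the 27.1% of all genes called there and no result about the list. OARD1, which removes terminal ADP-ribose from glutamate, averaged 29.8 ± 4.70 CPM against 20.9 ± 1.99 CPM (1.42-fold, edgeR adjusted p = 0.0019), and TIMELESS, a replication fork protein that binds PARP1, rose 1.21-fold (edgeR adjusted p = 0.00333). NUDT5, which splits free ADP-ribose, was lower in both lines, with 51.0 ± 6.62 CPM against 64.5 ± 3.34 CPM in THP-1 (edgeR adjusted p = 0.00214) and 53.4 ± 1.91 CPM against 70.4 ± 2.59 CPM in MOLM-13 (edgeR adjusted p = 0.00531). It was the 1 gene of 12 called in MOLM-13.

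DNA glycosylases, which remove the damaged base ahead of APEX1, gave 3 higher and 2 lower of 11 in THP-1 with both compounds. NEIL3 averaged 56.8 ± 4.13 CPM against 40.4 ± 1.66 CPM (1.40-fold, edgeR adjusted p = 4.78e-05), MBD4 rose 1.23-fold (edgeR adjusted p = 0.00472), and UNG, which removes uracil, was lower with a log2 fold change of -0.31 ± 0.07 (edgeR adjusted p = 0.00105). In MOLM-13 NEIL3 alone of 11 was called, with 50.2 ± 4.40 CPM against 38.7 ± 3.00 CPM (1.30-fold, edgeR adjusted p = 0.0115). Genes of NAD+, the substrate of the polymerases, gave 3 higher and 1 lower of 12 tested in THP-1. This number is near the 27.1% of all genes called there and is no result about the list. NAMPT, the rate-limiting enzyme of NAD+ salvage, averaged 50.4 ± 7.52 CPM against 32.0 ± 2.18 CPM (1.56-fold, edgeR adjusted p = 4.82e-05). The NAD+ hydrolase CD38 rose 1.49-fold (edgeR adjusted p = 3.94e-05) and NMNAT3, an enzyme of NAD+ synthesis, was lower with a log2 fold change of -0.70 ± 0.13 (edgeR adjusted p = 0.000132). In MOLM-13 NAMPT rose 1.27-fold (edgeR adjusted p = 0.0183), NMNAT2, at a low level (1.86 ± 1.03 CPM against 0.67 ± 0.15 CPM with vehicle, and 1.69 ± 0.72 CPM with olaparib alone), 2.79-fold (edgeR adjusted p = 0.0338) and CD38 was lower (-0.30 ± 0.08 on the log2 scale, edgeR adjusted p = 0.0248), 2 higher and 1 lower of 12. With LAA alone in MOLM-13 CD38 and NADK, the kinase that turns NAD+ into NADP+, were lower (-0.67 ± 0.08 and -0.43 ± 0.08, edgeR adjusted p = 0.000173 and 0.00965), 2 of 12. LAA alone called 1.08% of all genes lower there.

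Messenger RNAs of replication genes are known to follow the share of cells that copy DNA. With both compounds 10 of 28 rose and 2 fell in THP-1, among them MCM7, a helicase subunit, at 403 ± 26.4 CPM against 258 ± 23.3 CPM with vehicle (edgeR adjusted p = 5.26e-08), CDC6 (1.45-fold, edgeR adjusted p = 7.18e-07) and ORC6 (1.59-fold, edgeR adjusted p = 5.31e-06). In MOLM-13 7 of 28 rose and 0 fell, led by MCM10 (1.39-fold, edgeR adjusted p = 0.000934), MCM7 (1.32-fold, edgeR adjusted p = 0.00152) and ORC1 (1.39-fold, edgeR adjusted p = 0.00203). Summed levels of the 28 genes were 3700 ± 93.4 CPM with LAA, 3689 ± 35.1 CPM with olaparib, 4120 ± 2.10 CPM with both and 3762 ± 12.7 CPM with vehicle in THP-1 (SD, n = 3 each). In MOLM-13 they were 3917 ± 92.4, 3813 ± 47.6, 4211 ± 31.4 and 3867 ± 43.7 CPM in the same order. The groups with both compounds were the highest in each line, and so were the shares of mitochondrially encoded protein genes and the summed myeloid markers in THP-1. The part of these 3 measures in the changes of ADPRHL2 and XRCC1 was not tested. In 19 of the 24 pairings of a list with a single compound and a line edgeR called 0 genes, with 0 to 4 of them at an unadjusted p under 0.05. Of all genes tested, LAA called 1.49% and olaparib 0.269% in THP-1, and 1.88% and 0.00619% in MOLM-13. At such shares 0 calls in a short list are common and are no result about the lists.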

How the data were processed

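PolyA-selected libraries were made from column-purified RNA with an unstranded kit, per the labels' protocols. HISAT2, SAMtools, DESeq2 and the build hg38 stand in the submitters' processing notes. Not given in the sources used here are their versions, the counting tool and its strand setting. The authors deposited whole-number counts per gene without normalization, and FPKM, which divides those counts by gene length and library size. All 58735 gene identifiers, starts and ends matched the reference annotation of hg38, and no column belongs to other samples.

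The whole count table was fitted in edgeR 4.0.16 (R 4.3.3; filterByExpr, TMM, quasi-likelihood F test), on the 12 libraries of each line or on all 24 for differences between lines. Benjamini-Hochberg adjustment ran over 16331 (THP-1), 16160 (MOLM-13) or 17089 genes, in 16 comparisons. Levels are CPM with TMM scaling over all 24 libraries, and SE is the log2 fold change over the root of F. The script was tested on simulated data. Depth of 18666259 to 25265870 counts gave 67 counts or more for every member in every library.

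The 9 genes, the 6 further lists and the markers were chosen with earlier results of these data known. All 9 genes were named in every comparison, and of each list up to 3 called genes with the smallest adjusted p against vehicle. Likeness used genes with a mean log2 CPM of at least 1 (prior count 2).

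Alternatives were DESeq2 size factors, total counts only, no filter, DESeq2 1.42.0, limma 3.58.1 on log2(FPKM + 0.1) and log2(FPKM + 1), a replicate block, all 24 libraries in 1 fit (for vehicle between lines, only those 6 libraries), each replicate left out, and, added after seeing the data, a loess trend (span 0.3) on GC content and length removed. RefSeq promoters were found for 8 of the 9 genes.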

Additional observations from a re-analysis of the deposited data

Results flagged for a closer look

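No member stood out: groups of 3 libraries are too small for an outlier test, and the test of a difference between the lines called no member. Among named genes of the further lists, 4 differed between the lines in that test, each a THP-1 minus MOLM-13 difference in log2 fold change against vehicle. Over all genes tested 0.14% differed so for LAA and 2.13% for both compounds. The named genes were kept for a small adjusted p against vehicle in these same libraries, so their number is no result about the lists. CD38, the NAD+ hydrolase, differed by 0.80 for LAA (edgeR adjusted p = 0.00078): it averaged 27.2 ± 0.84 CPM with LAA and 25.0 ± 2.78 CPM with vehicle in THP-1, and 47.8 ± 1.60 CPM with LAA and 76.3 ± 5.25 CPM with vehicle in MOLM-13 (SD, n = 3 each). For both compounds CD38 differed by 0.88 (edgeR adjusted p = 2.36e-05), with 37.5 ± 2.28 CPM in THP-1 and 62.0 ± 1.96 CPM in MOLM-13. PARP9 differed by 0.64 for both compounds (edgeR adjusted p = 0.0288) and PARP12 by 0.83 (edgeR adjusted p = 0.00587). PARP12 averaged 52.0 ± 1.15 CPM with both compounds and 15.1 ± 1.05 CPM with vehicle in THP-1, and 22.0 ± 5.47 CPM and 11.4 ± 0.53 CPM in MOLM-13. OARD1 differed by 0.60 for both compounds (edgeR adjusted p = 0.0392), with 29.8 ± 4.70 CPM and 20.9 ± 1.99 CPM with vehicle in THP-1, and 23.3 ± 2.54 CPM and 24.7 ± 1.24 CPM with vehicle in MOLM-13. In MOLM-13 these differences rest on the libraries described above, in which the set of genes almost silent in THP-1 was lower with LAA and with both compounds.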

How the results depend on the processing

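Over 2403 member values under alternatives, 2370 kept their side of the threshold, 6 lost a call and 27 gained one. In 0 did the sign change where either side was called, and 150 changed sign with no call on either side. ADPRHL2 with both compounds in THP-1 was called against vehicle and against olaparib under all 15 alternatives of each, with log2 fold changes of 0.39 to 0.61 and 0.57 to 0.82. The number of members called, 2 for both compounds against vehicle and against olaparib in THP-1 and 0 elsewhere, moved as follows. Against vehicle in THP-1 it was 3 with DESeq2 and 3 with the GC and length trend removed, with APEX1 added. With total counts as the only scaling it was 1 for both compounds against LAA in THP-1 (ADPRHL2), and 1 each for both compounds against vehicle, LAA and olaparib in MOLM-13 (PARP1). Without a filter on low counts the THP-1 interaction gave 1 (ADPRHL2). DESeq2 gave 1 for the THP-1 interaction, and in MOLM-13 1 for LAA, 2 for both compounds against vehicle and 1 against olaparib. A fit of all 24 libraries gave the same 3 MOLM-13 counts of 1, 2 and 1. With the GC and length trend removed, an alternative chosen after seeing the data, 2 were called for both compounds against LAA in THP-1 (ADPRHL2 and APEX1), 1 for the THP-1 interaction, and 1 each for both compounds against LAA and against olaparib in MOLM-13 (PARP3 and PARP1). The cause was not tested.

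Leaving out 1 replicate at a time gave 1 to 2 members for both compounds against vehicle in THP-1, 1 to 3 against olaparib, 0 to 1 against LAA, 0 to 1 for the THP-1 interaction and 0 to 1 for LAA in MOLM-13. The replicate numbers did not pair the libraries: of 18 same-numbered pairs in each line, correlations of deviations from group means were over 0.1 in 0 in THP-1 and 2 in MOLM-13. With the replicate block the count of members was 2 for both compounds against vehicle and against olaparib in THP-1 and 0 elsewhere. The blocks lie within lines, so for vehicle between the lines that fit compared a reference replicate of each line, not group means. Its 369 called genes therefore cannot be set against the 765 of the main fit.

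Over all genes, counts of calls also depended on the setting. For LAA they were 243 in THP-1 (114 to 453 over alternatives and left-out replicates) and 303 in MOLM-13 (113 to 577). For olaparib they were 44 in THP-1 (6 to 124) and 1 in MOLM-13 (0 to 194). Interactions gave 1237 in THP-1 (797 to 1571) and 329 in MOLM-13 (206 to 555). Both compounds in MOLM-13 gave 1972 against vehicle (1043 to 2534), 2413 against LAA (1029 to 3168) and 1208 against olaparib (624 to 1751). Differences between the lines gave 24 for LAA (13 to 102), 1 for olaparib (0 to 34) and 364 for both compounds (211 to 656). With total counts only, 1096 of 2030 genes called with both compounds in MOLM-13 were higher, in place of 784 of 1972. Depth limits PARP3 most, with 67 to 156 counts per library.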
